A study of Macaca mulatta with 2 samples.

Results

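Ciliary-type smooth muscle cells without RERGL were examined in single-cell RNA sequencing of rhesus macaque trabecular meshwork, the filter tissue at the front of the eye through which aqueous humour leaves. These cells, called ciliary-type cells here, held a unique molecular identifier (UMI, 1 captured RNA molecule) of at least 3 of the 6 genes DES, MYH11, CHRM3, CHRM2, SYNPO2 and LMOD1. They also needed at least 2 UMIs of MYH11, none of RERGL, COX4I2 or PECAM1, and fewer than 3 of the 5 meshwork genes CHI3L1, ANGPTL7, CCK, EGFL6 and CCDC3. Of 17652 barcodes, 14063 were kept for having at least 500 genes and under 20% mitochondrial UMIs, and 890 of these were ciliary-type cells. Among kept barcodes, 289 of 8633 from glaucoma tissue and 601 of 5430 from normal tissue belonged to the set.

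The glaucoma library came from monkeys that the study describes as spontaneous models of primary open-angle glaucoma, and the normal library came from healthy controls. The genotype label says only glaucoma or normal, no allele, drug or other treatment is labelled, and the number of animals and eyes, their age and their eye pressure are not stated in the labels. Tissue of both groups was digested with 5 mg collagenase at 37 °C for 20 minutes, and droplet libraries of 3′ RNA ends were aimed at 10000 cells each. The ciliary-type cells held 1772651 UMIs (glaucoma) and 3710085 UMIs (normal), at a median of 1946 and 2041 genes a cell. The libraries shared 17 barcode sequences, none of which was a ciliary-type cell in both. Each group is 1 library, so the difference between them has no replicate check, and neither tests nor p-values appear here.

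The ciliary muscle lies beside the meshwork, and its tendons end in it. It is a smooth muscle driven mainly by acetylcholine from parasympathetic nerves through muscarinic M3 receptors, which act through Gq proteins and phospholipase C to release calcium. Calcium and calmodulin then activate myosin light-chain kinase, while a myosin phosphatase reverses the step. When the muscle contracts it changes the shape of the lens and pulls on the meshwork, which lowers outflow resistance, and ultrastructural work describes it as an unusually fast, mitochondria-rich smooth muscle. RERGL, a Ras-related gene, marks the smooth muscle of vessel walls in many single-cell atlases.

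The genes that chose the cells are given first, as a description only. Levels are CPM, the UMIs of a gene summed over all ciliary-type cells of a library per 1000000 UMIs, and intervals in brackets are exact 95% intervals that cover counting error only. DES, the muscle intermediate filament desmin, stood at 3674 CPM in glaucoma cells and 2434 CPM in normal cells. MYH11, smooth muscle myosin heavy chain, stood at 6066 and 8995 CPM. CHRM3, the muscarinic M3 receptor, stood at 1295 and 2296 CPM, and the filament-associated genes LMOD1 and SYNPO2 were also lower in glaucoma cells, at 388 against 633 CPM and 89.7 against 180 CPM. CHRM2, the muscarinic M2 receptor, gave 1 UMI in the glaucoma cells and 3 in the normal cells, so it contributed almost nothing and the set was in practice chosen on the other 5 markers. Among the meshwork genes, of which the rule allowed fewer than 3 in a cell, CCDC3 had a UMI in 51.6% of glaucoma and 37.4% of normal cells. In all, 52 glaucoma and 27 normal cells held 2 of these genes.

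Free RNA can place UMIs in cells that do not express a gene, so each cell was thinned to 1000 UMIs and compared with macrophages of the same library. After thinning, CHRM3 was detected in 69.2% [63.5, 74.5] of glaucoma and 86.6% [83.6, 89.3] of normal ciliary-type cells, against 1.13% of glaucoma and 1.54% of normal macrophages. Without thinning these shares were 92% and 99% of ciliary-type cells and 3.56% and 5.34% of macrophages. The median depth before thinning was 6107 and 5973 UMIs in ciliary-type cells and 4144 and 4750 UMIs in macrophages, and thinning left out 3 glaucoma and 18 normal ciliary-type cells. CHRM3 helped to choose the cells, so its excess over macrophages is a description. ATP2A1, which the rule did not use, was found in 73.8% of glaucoma and 87.5% of normal ciliary-type cells after thinning, against 3.61% and 0.769% of macrophages. A small number of glaucoma cells went against the name. CHRM3 had no UMI in 23 of the 289 glaucoma cells and in 6 of the 601 normal cells, and 21 and 3 of these also lacked ATP2A1, a leading gene of the other cells. The labels name the tissue as trabecular meshwork only, so an origin in the ciliary muscle rests on the genes.

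The share of ciliary-type cells was 3.35% [2.98, 3.75] of kept glaucoma barcodes and 11.1% [10.2, 11.9] of kept normal barcodes, a log2 ratio of -1.73 [-1.93, -1.52]. Mitochondrial content moved with this difference. The median mitochondrial share was 16.3% of UMIs in glaucoma ciliary-type cells and 11.4% in normal ones, against 3.82% and 3.18% over all kept barcodes. Barcodes with 20% mitochondrial UMIs or more and at least 500 genes mostly met the rest of the rule, namely 915 of 1085 glaucoma barcodes (84.3%) and 401 of 494 normal barcodes (81.2%). The 20% limit thus kept 24% of the glaucoma barcodes that met the marker rule, against 60% of such normal barcodes. Without any mitochondrial limit the shares were 12.4% [11.7, 13.1], or 1204 of 9718 barcodes, and 16.9% [16, 17.9], or 1002 of 5924, and the log2 ratio was -0.45. With a limit of 10% it was -3.17. Fewer such cells in the tissue and different recovery of cells in the 2 dissections cannot be told apart with 1 library a group.

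**Figure D1:**
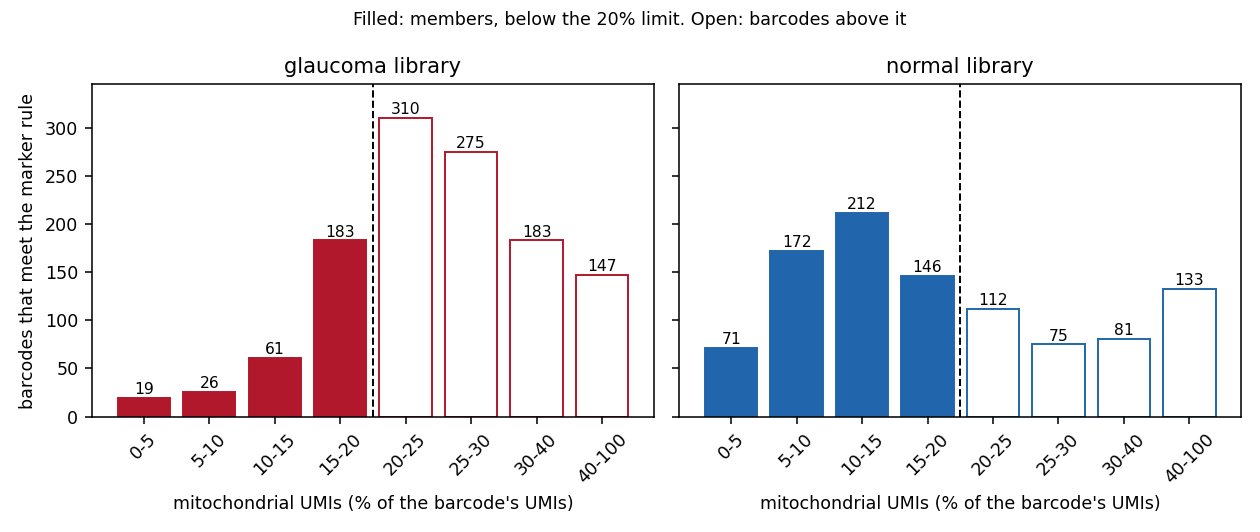
Number of barcodes that meet the marker rule (vertical axis) by the percentage of their UMIs that is mitochondrial (horizontal axis), glaucoma library on the left and normal library on the right. The glaucoma barcodes peak at 20 to 25%, with 310, just above the dashed 20% limit, and the normal barcodes peak at 10 to 15%, with 212.

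Set against all other kept cells, the ciliary-type cells carried a program that joined smooth muscle filaments with fast calcium and energy genes. Since the rule picks muscle, these are values that describe the cells and no test. The comparison with RERGL-positive muscle cells is given below. Of 11237 genes, 6.18% were at least 2-fold higher and 20.3% at least 2-fold lower in both libraries, with counting intervals that excluded equality. The genes named first here were those of highest ratio among genes found in at least 25% of the cells, and so were chosen by their values. KCNK3, a background potassium channel, led with 103 CPM against 2.31 CPM in other glaucoma cells and 183 against 4.55 CPM in other normal cells. ATP2A1, the fast-twitch sarcoplasmic reticulum calcium pump of skeletal muscle, stood at 2226 against 76.7 CPM in glaucoma cells and 2768 against 79.6 CPM in normal cells. PCP4, a calmodulin regulator, was among the most abundant transcripts, with 13154 against 565 CPM and 11936 against 685 CPM. Energy genes were in the same group, and those named here had log2 ratios between 3.95 and 4.95 in the 2 libraries. Muscle isoforms among them were ENO3 (enolase), CKM (creatine kinase), PGAM2 (phosphoglycerate mutase) and PYGM (glycogen phosphorylase). SLC2A4, the insulin-responsive glucose transporter, was another. CKB, the brain-type creatine kinase, was the most abundant of those named, with 5063 CPM in glaucoma and 5214 CPM in normal cells.

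The gene lists showed where this program stopped. Of 20 contractile filament genes, 13 were higher than in other cells and 3 lower. MYLK, the myosin light-chain kinase, was 3.92 and 3.66 higher on the log2 scale in the glaucoma and normal libraries. The exceptions were CALD1 (caldesmon, -1.17 and -2.08), ACTG1 (cytoplasmic actin, -2.06 and -2.74) and MYH10 (non-muscle myosin, -1.66 and -2.77). TAGLN, transgelin, otherwise a standard smooth muscle marker, differed little from other cells, at 0.34 and -0.2. Calcium-handling genes were higher in 8 of 15, including the inositol trisphosphate receptor ITPR1 and the calcium store protein CASQ2. Of 18 nuclear genes of oxidative phosphorylation 17 were higher, with list medians of 1.52 and 1.76, where the median over all genes was -0.35 and -0.36. Of 19 collagen and fibrillar matrix genes none was higher and 18 were lower. HAND2, a developmental transcription factor, was 4.56 and 2.76 higher, and MYOCD, the co-activator of smooth muscle genes, 2.76 and 2.05.

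Among receptors, the ciliary-type cells had little besides CHRM3. Endothelin receptor EDNRA gave 14 UMIs in glaucoma cells and 33 in normal cells, prostaglandin F receptor PTGFR, the target of a class of glaucoma drugs, gave 35 and 47, and oxytocin receptor OXTR gave 19 and 53. ADRA1A, ADRB1, AVPR1A and TACR2 had no UMI in ciliary-type cells of either library. All other kept cells had little of ADRA1A (0.0669 CPM glaucoma, 0.11 CPM normal), ADRB1 (0.167 and 0.219) and AVPR1A (0.435 and 1.04) too. These zeros therefore do not set the ciliary-type cells apart. After thinning, ADRA1A was found in 0 of 286 glaucoma cells, which allows a share of up to 1.05% of cells with a UMI at this depth. EDNRA was found in 0.699% of glaucoma and 1.03% of normal cells after thinning, close to the 0.226% and 0.769% of macrophages. The exception was S1PR3, a receptor for sphingosine 1-phosphate, with 104 UMIs in glaucoma cells and 561 in normal cells.

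Muscle cells that met every other condition but held RERGL came to 42 glaucoma and 49 normal cells. Because RERGL defined the split, ratios are given for the other genes, each computed within a library. Of 5373 genes measured, 0.558% were called higher and 2.74% lower in ciliary-type cells of both libraries, 30 and 147 genes. A call here means a ratio of at least 2-fold with an interval that excludes equality in each library. None of 20 contractile filament, 10 calcium-handling, 13 energy or 17 nuclear oxidative phosphorylation genes was called higher. Of the contractile genes 4 were called lower. In that order, list medians in the glaucoma and normal libraries were -0.3 and -0.38, 0.78 and 0.15, 1.15 and 0.55, and 0.69 and 0.59. EPAS1, a hypoxia-inducible factor abundant in vessel walls, had 10.7 CPM in ciliary-type cells against 501 CPM in RERGL-positive cells of the glaucoma library, and 14.8 against 568 CPM in the normal library. JAG1, a Notch ligand, had 12.4 against 294 CPM and 16.2 against 351 CPM. EDNRA had 7.9 against 119 CPM and 8.89 against 227 CPM, and PPP1R14A, the inhibitor of myosin phosphatase known as CPI-17, had 73.3 against 835 CPM and 30.7 against 449 CPM. The low side also held WTIP, S100A4, MGLL, SPRY1, HES4, ANGPT1, MYH9 and ZEB2, with log2 ratios between -2.75 and -6.6.

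TAGLN, CALD1, VIM, ACTG1 and TLN1 were lower in ciliary-type cells too, as were both subunits of the nitric oxide receptor, GUCY1A1 (glaucoma library -3.23, normal library -2.26) and GUCY1B1 (-1.69 and -2.39). Several genes of the high side rested on few UMIs in RERGL-positive cells. KCNK3 had 103 against 15.9 CPM in the glaucoma library, a log2 ratio of 2.69 [0.82, 5.75] from 2 RERGL-positive UMIs, and 183 against 59.5 CPM in the normal library, 1.62 [0.77, 2.63]. HAND2 had a single UMI in the RERGL-positive cells of each library, which gives 2.94 [0.43, 8.25] and 2.75 [0.25, 8.07]. RSPO2, a Wnt enhancer, stood at 4.14 [1.65, 9.45] and 2.02 [0.15, 5.08], and CLIC5, a chloride channel relative, at 3.71 [1.22, 9.03] and 2.33 [0.46, 5.39]. ACSL1 (fatty acid activation) stood at 3.68 [1.19, 8.99] and 1.65 [0.84, 2.61], the vesicle fusion protein SNAP25 at 1.59 [0.01, 3.88] and 1.65 [0.76, 2.72], and the protocadherin PCDH10 at 1.75 [0.17, 4.04] and 1.54 [0.48, 2.86]. The other leaders were ATP1B1 (a sodium pump subunit, 1.34 and 1.31), PCSK1N (a prohormone convertase inhibitor, 1.45 and 1.58), RERG (a Ras-related growth inhibitor, 1.41 and 1.45), RAMP2 (an adrenomedullin receptor subunit, 1.35 and 1.72) and the chemokine CX3CL1 (1.82 [0.44, 3.71] and 1.96 [0.83, 3.42]). PI16 led the order at 2.65 [1.29, 4.54] and 1.97 [0.4, 4.25], but it was found in only 10% of glaucoma and 8.49% of normal ciliary-type cells and is also a stromal fibroblast marker.

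The RERGL-positive cells were not uniform. Those with only 1 or 2 RERGL UMIs, 15 glaucoma and 19 normal cells, had levels near those of ciliary-type cells for CHRM3 (985 and 2062 CPM) and ATP2A1 (1524 and 2425 CPM). Their levels of EPAS1 (260 and 239 CPM), JAG1 (74.4 and 85.9 CPM) and PPP1R14A (353 and 172 CPM) lay well above those of ciliary-type cells. Those with 3 or more, 27 and 30 cells, had 222 and 87.3 CPM of CHRM3 and 361 and 125 CPM of ATP2A1. Against these, 165 genes were called higher and 198 lower, and of the 30 and 147 calls above 19 and 128 were called again. PCP4 was then 3.6 and 4.62 higher on the log2 scale and ENO3 3.91 and 5.68, against 1.79 and 1.14 for PCP4 and 1.95 and 1.05 for ENO3 with all RERGL-positive cells. RERGL-positive cells were shallower and poorer in mitochondrial UMIs, with medians of 2385 and 2965 UMIs and of 4.68% and 4.01% mitochondrial UMIs, and the part of depth in these ratios was not tested.

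**Figure D2:**
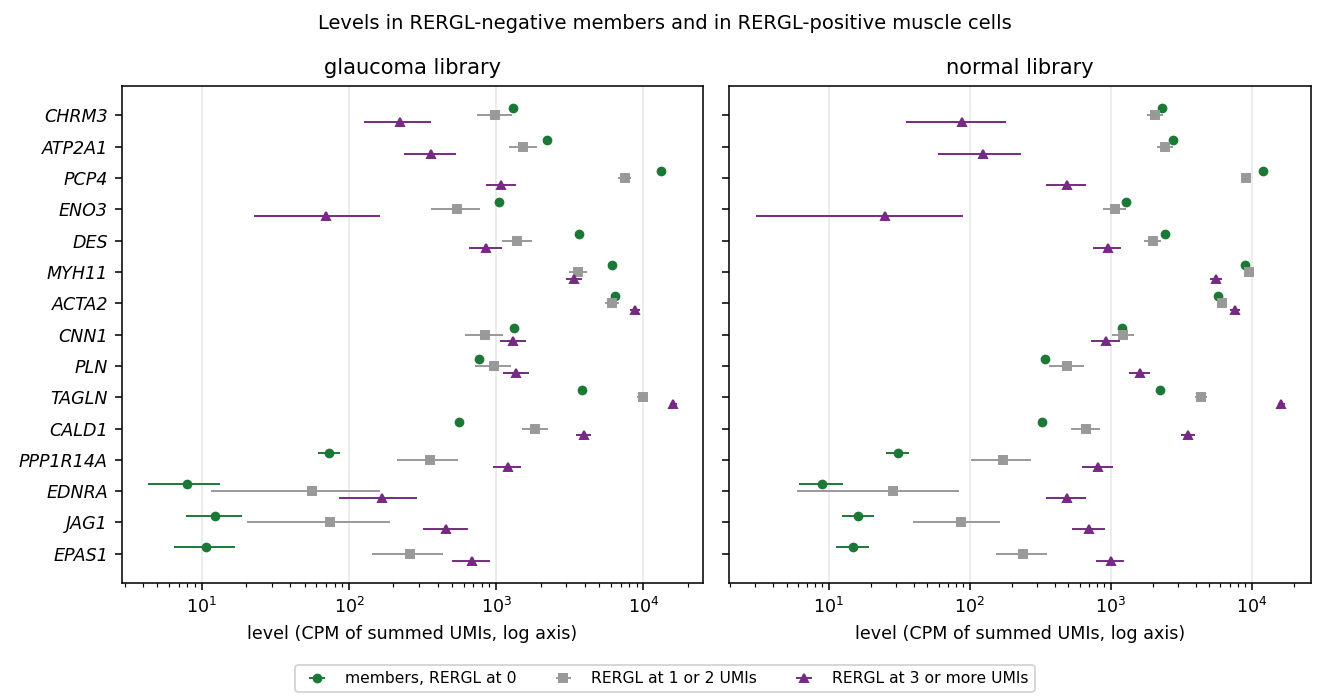
Levels in CPM of summed UMIs (log axis) of 15 genes in ciliary-type cells (circles), in cells with 1 or 2 RERGL UMIs (squares) and in cells with 3 or more (triangles), glaucoma library on the left and normal library on the right; bars are exact 95% Poisson intervals. CHRM3, ATP2A1, PCP4 and ENO3 lie highest in ciliary-type cells, TAGLN, CALD1, PPP1R14A, EDNRA, JAG1 and EPAS1 lie highest in cells with 3 or more RERGL UMIs, and cells with 1 or 2 lie between for most of these.

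Within ciliary-type cells, 5198 genes had at least 100 UMIs over both libraries. Of these, 154 (2.96%) were called higher and 225 (4.33%) lower in glaucoma cells, by a ratio of at least 2-fold whose interval excludes equality. The median log2 ratio of all genes was -0.15, so a ratio of 0 stands slightly above the middle of the genes. Taken relative to that median, 211 genes were higher and 129 lower, and with mitochondrial UMIs left out of the totals 174 were higher and 169 lower, so the balance of the 2 directions depends on the scaling. List counts below can be read against 7.29% of all genes called in either direction. The lists were written with earlier results of these data known.

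Signalling and receptor genes held few calls. Of 6 measured muscarinic and Gq genes, 1 was called higher, none was called lower, and the median log2 ratio was -0.59. PLCB4, a phospholipase C that Gq activates, had 2855 CPM in glaucoma and 4073 CPM in normal cells, a log2 ratio of -0.51 [-0.56, -0.47]. GNA11, a Gq family alpha subunit, had 463 and 739 CPM (-0.67). RGS2 and RGS16, which speed the shut-off of G proteins, had 3693 and 4496 CPM (-0.28) and 362 and 672 CPM (-0.9), and DGKG, a diacylglycerol kinase, lay lowest at -0.98. RGS5, a vessel-wall and pericyte member of the same shut-off family, was the 1 called higher, with 188 and 93.8 CPM (1.00 [0.78, 1.22]). Vessel-wall markers summed to 769.5 CPM in glaucoma and 793 CPM in normal cells over 9 markers with none at 0, RGS5 among them. KCNJ8 (296 and 422 CPM) made up much of that sum and was lower in glaucoma cells. RASL12 (116.8 and 145.5 CPM), CSPG4 (45.7 and 55.3), MCAM (13 and 19.1), ABCC9 (39.5 and 41.8) and NOTCH3 (0.564 and 0.809) were lower too. NDUFA4L2 (49.1 and 6.2 CPM) and PDGFRB (21.4 and 8.36 CPM, under the 100 UMIs needed for a call) had higher values in glaucoma cells along with RGS5. The part of these markers in the RGS5 ratio was not tested. S1PR3 was called lower, with 58.7 CPM in glaucoma cells and 151 CPM in normal cells (-1.37 [-1.68, -1.06]), and was found in 28% and 48.9% of cells.

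Contractile filament genes showed no common direction. Of 20 measured, 1 was called higher and 1 lower. ACTG1, cytoplasmic gamma actin, had 558 CPM in glaucoma and 261 CPM in normal cells (1.1 [0.97, 1.23]), and HSPB6, a small heat-shock protein linked to relaxation, had 415 and 897 CPM (-1.11 [-1.23, -1]). The smooth muscle actin ACTA2 had 6426 and 5794 CPM (0.15), MYL9 (regulatory light chain) 7573 and 9764 CPM (-0.37), TAGLN 3833 and 2232 CPM (0.78) and CALD1 555 and 327 CPM (0.76). Among excluded barcodes with 20% or more mitochondrial UMIs the ratios were 0.03 for ACTG1 and -0.51 for CALD1. MYLK had 4826 and 7156 CPM (-0.57). Of 18 genes of dense bodies and intermediate filaments, which anchor the filaments, none was called, the median was -0.4, and values ran from PDLIM7 at 0.82 to SORBS2 at -1.

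Of 11 measured genes that set the phosphorylation of myosin, 1 was called higher and 1 lower, 9 had ratios below 0, and the median was -0.56. PPP1R14A, which inhibits myosin phosphatase, had 73.3 CPM in glaucoma and 30.7 CPM in normal cells (1.26 [0.88, 1.63]), and was found in 21.5% and 9.15% of cells. PPP1CB, the catalytic subunit of that phosphatase, had 55.8 and 170.1 CPM (-1.61 [-1.93, -1.3]). PPP1R12A, its myosin-targeting subunit, had 2249 and 4194 CPM (-0.9). PPP1R14A also differed strongly between RERGL-negative and RERGL-positive cells, as given above.

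Calcium handling held 1 call in each direction among 10 measured genes, and the called genes encode partners. PLN, phospholamban, which restrains the reticulum calcium pump, had 768 CPM in glaucoma and 341 CPM in normal cells (1.17 [1.06, 1.28]). ATP2A2, the cardiac and smooth muscle form of that pump, had 129.7 and 352 CPM (-1.44 [-1.65, -1.24]). Among excluded barcodes with 20% or more mitochondrial UMIs the ratios were 1.92 and -1.37, so both differences were also present in cells that the limit removed. ATP2A1, the far more abundant pump gene of these cells, was not in this list. It had 2226 [2157, 2296] CPM in glaucoma and 2768 [2714, 2822] CPM in normal cells, less than a 2-fold difference. ITPR1 had 376 and 663 CPM (-0.82), CASQ2 274 and 412 CPM (-0.59), and the ryanodine receptor RYR2 19.2 and 28.3 CPM (-0.56). The store-operated channel gene ORAI1 was nearly level at 0.04, beside STIM1 at -0.75, CACNA2D1 at -0.69, ATP2B1 at -0.23 and CAMK2G at -0.12. CACNA1C, the L-type calcium channel, gave no UMI in glaucoma cells and 1 in normal cells. It was scarce in all other kept cells as well, at 1.04 CPM (glaucoma) and 1.21 CPM (normal).

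Relaxation genes had a median of -0.59 over 10 measured, with none higher and 2 lower. NPR1, the natriuretic peptide receptor, had 9.59 CPM in glaucoma and 42.9 CPM in normal cells (-2.16 [-2.98, -1.44]), and GUCY1A1, a subunit of the nitric oxide receptor, 11.8 and 28.3 CPM (-1.26 [-2.01, -0.57]). GUCY1A1 turned to 0.79 with a mitochondrial limit of 10%. PDE5A, which breaks down cyclic GMP, had 1063 and 1954 CPM (-0.88), and MRVI1, a target of the cyclic GMP kinase, 1894 and 2855 CPM (-0.59). The highest value was ADCY6 at 0.46. Of 5 potassium channel and gap junction genes, GJC1, a connexin, was called lower with 20.3 and 41.2 CPM (-1.02 [-1.59, -0.49]); KCNK3 had 103 and 183 CPM (-0.83) and ABCC9, a subunit of the ATP-sensitive channel, was highest at -0.08.

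Fibrillar matrix genes had calls in 1 direction. Of 11 collagen and fibrillar matrix genes 3 were called higher, none lower, and the median was 0.7. COL6A2 had 168 CPM in glaucoma and 57.4 CPM in normal cells (1.55 [1.29, 1.81]), FBN1 (fibrillin) 36.1 and 15.6 CPM (1.21 [0.67, 1.75]), and BGN (biglycan) 132 and 65.5 CPM (1.01 [0.75, 1.28]). COL6A1 was lowest at -0.1. Beside this, stromal fibroblast markers summed to 536 CPM in glaucoma and 284 CPM in normal cells over 8 markers, none at 0 in either library, while meshwork markers summed to 4348 and 2295 CPM over 3, nearly all of it MYOC (4298 and 2266 CPM). Their part in the matrix ratios was not tested. A set of 41 glaucoma and 36 normal cells held at least 2 markers of macrophages, T or NK cells, Schwann cells or melanocytes, or at least 100 UMIs of IGKC, and stromal markers were not used to choose it. Without these cells the median of the fibrillar list was 0.91, without cells at 0 UMIs of CHRM3 it was 0.48, with any mitochondrial share -0.02, and among excluded barcodes with 20% or more mitochondrial UMIs it was -0.1, with FBN1 at -0.78 and BGN at -0.07 but COL6A2 at 1.01. Of 9 basement membrane genes, NID1 (nidogen) was called higher at 1.65 [1.08, 2.23] and LAMC1 (a laminin chain) lower at -1.04 [-1.65, -0.48], 7 had ratios below 0, and the median was -0.34.

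Transcription factors held 1 call among 9 measured genes. TFAP2B, a neural crest and anterior segment factor, had 48 CPM in glaucoma and 11.3 CPM in normal cells (2.08 [1.53, 2.65]), in 17.6% and 3.66% of cells. Its level was highest in the CHRM3-negative glaucoma cells, and without these it was 1.59. MEF2D was lowest at -0.66. TTN, the giant filament of striated muscle, was called higher with 79.5 and 16.7 CPM (2.25 [1.81, 2.71]) in 17.3% and 5.16% of cells, while the fast troponin TNNI2 was called lower with 10.2 and 22.6 CPM (-1.16 [-1.98, -0.41]), 27.8% of its glaucoma UMIs coming from 1 barcode. TTN was -0.17 with a mitochondrial limit of 10% and 3.89 among barcodes with 20% or more.

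Of 4 measured nerve growth and guidance genes, BDNF, a neurotrophin, was called lower with 129 CPM in glaucoma and 276 CPM in normal cells (-1.1 [-1.32, -0.89]), SEMA3C, a guidance cue, lower at -1.13 [-1.74, -0.56], and NCAM1, an adhesion molecule, higher at 1.26 [0.68, 1.85]. Schwann cell markers summed to 196 CPM in glaucoma and 154 CPM in normal cells over 6 markers, none at 0. NCAM1 itself is one of these, with 31 and 12.9 CPM. The part of the other markers in the NCAM1 ratio was not tested. Energy genes held 1 call among 13, PPARGC1A, the co-activator of mitochondrial growth, with 50.8 and 108 CPM (-1.08 [-1.43, -0.75]), and GAPDH was highest at 0.94. Nuclear oxidative phosphorylation genes, 17 measured, had a median of 0.07, with NDUFB8 called higher at 1.08 [0.83, 1.33] and NDUFS1 lowest at -0.94. So the higher mitochondrial share of glaucoma cells stood beside nuclear genes of the same organelle that were near level.

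Stress lists were mixed. Immediate early genes had 2 of 13 called lower, EGR1 with 275 CPM in glaucoma and 591 CPM in normal cells (-1.11 [-1.25, -0.96]) and KLF4 (-1.01 [-1.27, -0.75]), and IER3 was highest at 0.36. Among 12 heat-shock genes, CRYAB, alpha B-crystallin, was called higher with 576 and 279.5 CPM (1.04 [0.92, 1.17]) and DNAJB1 lower with 74.5 and 173 CPM (-1.22 [-1.5, -0.94]). Of 10 oxidative stress and metal genes, MT1E (2.19 [1.63, 2.76]), GPX4 (1.35 [0.96, 1.74]) and TXN (1.00 [0.65, 1.35]) were called higher and NQO1 lower (-1.45 [-2.07, -0.88]); MT1E is one of a family of near-identical copies whose reads counting may split. CCL2, a chemokine, was called higher at 1.6 [1.08, 2.12], but 66.7% of its glaucoma UMIs came from 1 barcode, and without cells holding markers of other types it was -0.83. None of 10 TGF-beta and BMP genes was called, from ID1 at 0.87 to BMPR2 at -0.83, and none of 3 cell-cycle genes.

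**Figure D3:**
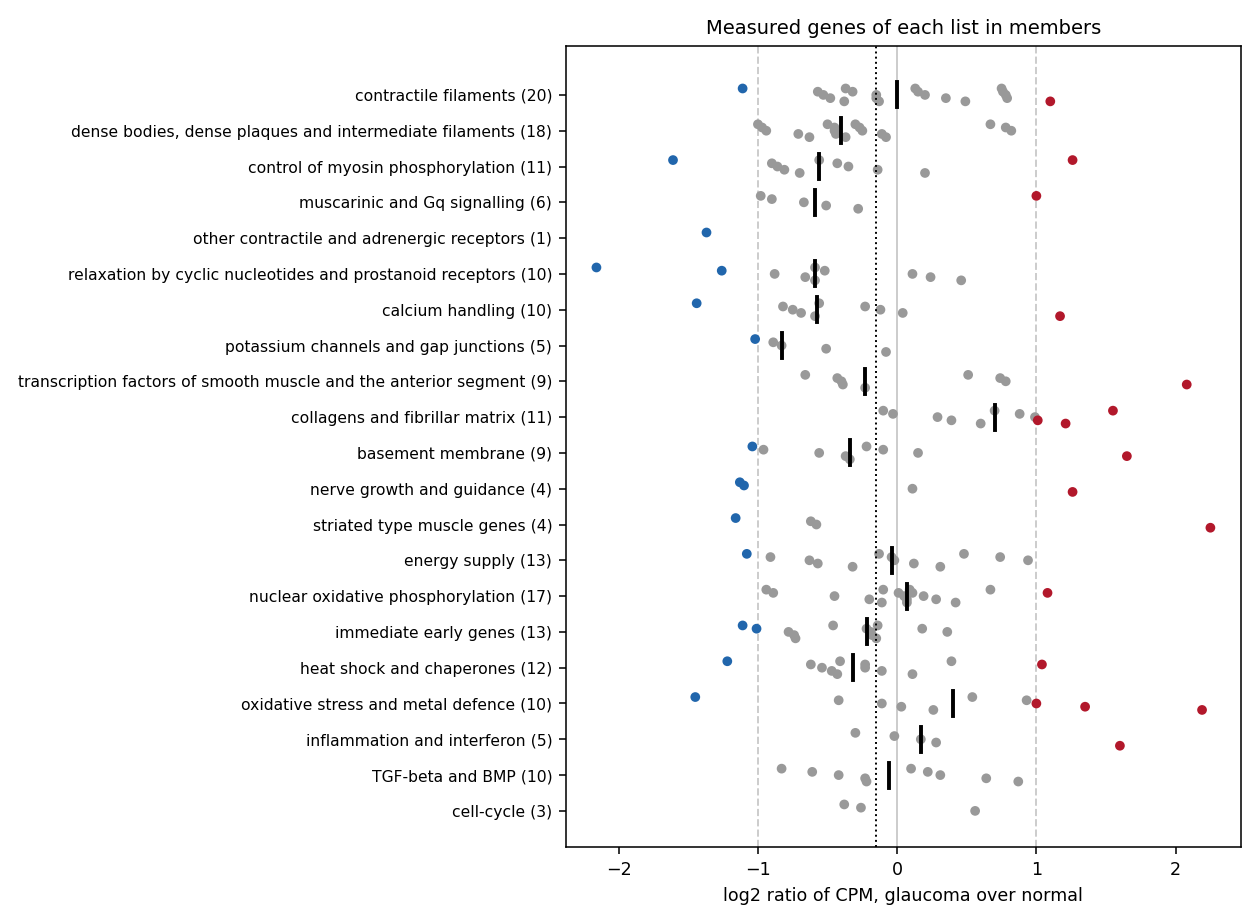
Log2 ratio of CPM, glaucoma over normal, of each measured gene (points) in 21 lists, with the number measured in brackets and the list median as a black bar where 5 or more genes were measured. Red points are called higher, blue points called lower and grey points not called; the dotted line is the median of all genes, -0.15, and the dashed lines mark 2-fold. Collagens and fibrillar matrix have the highest median, 0.7, and potassium channels and gap junctions the lowest, -0.83.

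The 12 highest called genes were led by immune transcripts. IGKC, an immunoglobulin light chain, had 2783 CPM in glaucoma and 5.39 CPM in normal cells (9.01 [8.38, 9.72]), but 98.9% of its glaucoma UMIs came from 1 barcode, and the ratio without the top barcode of each library was 2.52. LYZ (4.56), RGS1 (4.46), MAMU-DRA (an MHC class II chain, 4.16), CCL4L1 (3.69), C1QC (3.39) and CD14 (3.21) are genes of macrophages and lymphocytes. Macrophage markers moved with them, since 7 markers summed to 101.0 CPM in glaucoma cells and 9.7 CPM in normal cells, with CD68 at 0 in both, and 12 and 3 cells held at least 2 of them. T and NK cell markers summed to 16.9 and 4.58 CPM, with 4 and 3 of 6 markers at 0. Without the 41 glaucoma and 36 normal cells set apart above IGKC stood at 2.22, LYZ at 2.75, RGS1 at 4.30, MAMU-DRA at 3.84, CCL4L1 at 1.89, C1QC at 2.57 and CD14 at 0.96. IGKC and C1QC helped to choose the cells left out, so their lower ratios follow in part from that choice. IGKC, MAMU-DRA and CCL4L1 belong to multigene families, so their counts are uncertain.

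Of the other high genes, GPR183 and MT1JP were spread over more cells. GPR183, a receptor for oxysterols that is best known from immune cells, had 70.5 CPM in glaucoma and 4.31 CPM in normal cells (4.03 [3.28, 4.88]), in 19.7% and 2% of cells. MT1JP, annotated as a metallothionein pseudogene, had 189 and 13.7 CPM (3.78 [3.35, 4.24]), in 26.6% and 3% of cells, with near-identical family copies. Among excluded barcodes with 20% or more mitochondrial UMIs these ratios were 3.88 for GPR183 and 6.61 for MT1JP. CP, ceruloplasmin, found in 5.19% of glaucoma cells, was higher at 3.94 but -0.65 in the excluded barcodes. NDUFA4L2 (2.98) and VMO1 (2.96) completed the high side, each found in under 10% of glaucoma cells, and 1 barcode held 87% of the normal UMIs of NDUFA4L2.

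The 12 lowest genes had at most 70.3 CPM in either library. TRABD2A, an inhibitor of Wnt proteins, had 4.51 CPM in glaucoma and 60.4 CPM in normal cells (-3.74 [-4.97, -2.74]), in 2.42% and 23.3% of cells. COL9A1, a collagen of cartilage and the eye, had 13 and 70.3 CPM (-2.44 [-3.12, -1.82]), in 7.61% and 29.8% of cells. Among excluded barcodes the ratios were -3.21 for TRABD2A and -2.5 for COL9A1. SLC22A15 (-2.51), DSP (desmoplakin, -2.48), MAPK4 (-2.37), TMEM246 (-2.3), TRO (-2.27), FAM184A (-2.26), PHYHIPL (-2.19), NPR1 and GNE (a sialic acid enzyme, -2.09) had the same direction. MYH3, embryonic myosin, was the exception: 8.46 and 46.9 CPM (-2.47 [-3.34, -1.71]) came from 6 of 289 glaucoma and 13 of 601 normal cells, and the excluded barcodes gave 4.07.

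The calls were also counted in other sets of cells. Among excluded barcodes with 20% or more mitochondrial UMIs, 78 of 154 higher genes and 120 of 225 lower genes were again at least 2-fold, and 128 and 221 kept their sign. Those barcodes were not used for the calls but come from the same 2 libraries, so they are no replicate. Without each gene's top barcode 146 and 223 stayed at least 2-fold, and without cells holding markers of other types 134 and 185. Some differences were also present in the RERGL-positive cells, glaucoma over normal. There ACTG1 was at 1.56 [1.23, 1.89], COL6A2 at 1.45 [0.84, 2.09], BGN at 1.33 [0.77, 1.9], EGR1 at -2.74 [-3.39, -2.14] and HSPB6 at -1.33 [-2, -0.71]. RGS5 was at 1.42 [0.8, 2.07], PPP1R14A at 0.9 [0.47, 1.33] and ATP2A2 at -1.76 [-2.98, -0.71]. PPP1CB (-3.69 [-9.07, -1.04]) and S1PR3 (-4.25 [-9.6, -1.65]) each had 1 glaucoma UMI. MYLK (-1.37), PPP1R12A (-1.4), ITPR1 (-2.14), PDE5A (-1.63) and GNA11 (-1.43) had lower ratios there than in ciliary-type cells. PLN (0.29), CRYAB (0.32 [-0.12, 0.75]) and GUCY1A1 (-0.28 [-1.34, 0.72]) were nearer level. NQO1 (1.14 [-0.27, 2.64]), LAMC1 (1.02 [-0.43, 2.53]), TTN (-2.03 [-5.23, 0.14]) and GJC1 (0.29 [-1.76, 2.27]) pointed the other way on few UMIs. Whether a difference is particular to ciliary-type cells was not tested.

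**Figure D4:**
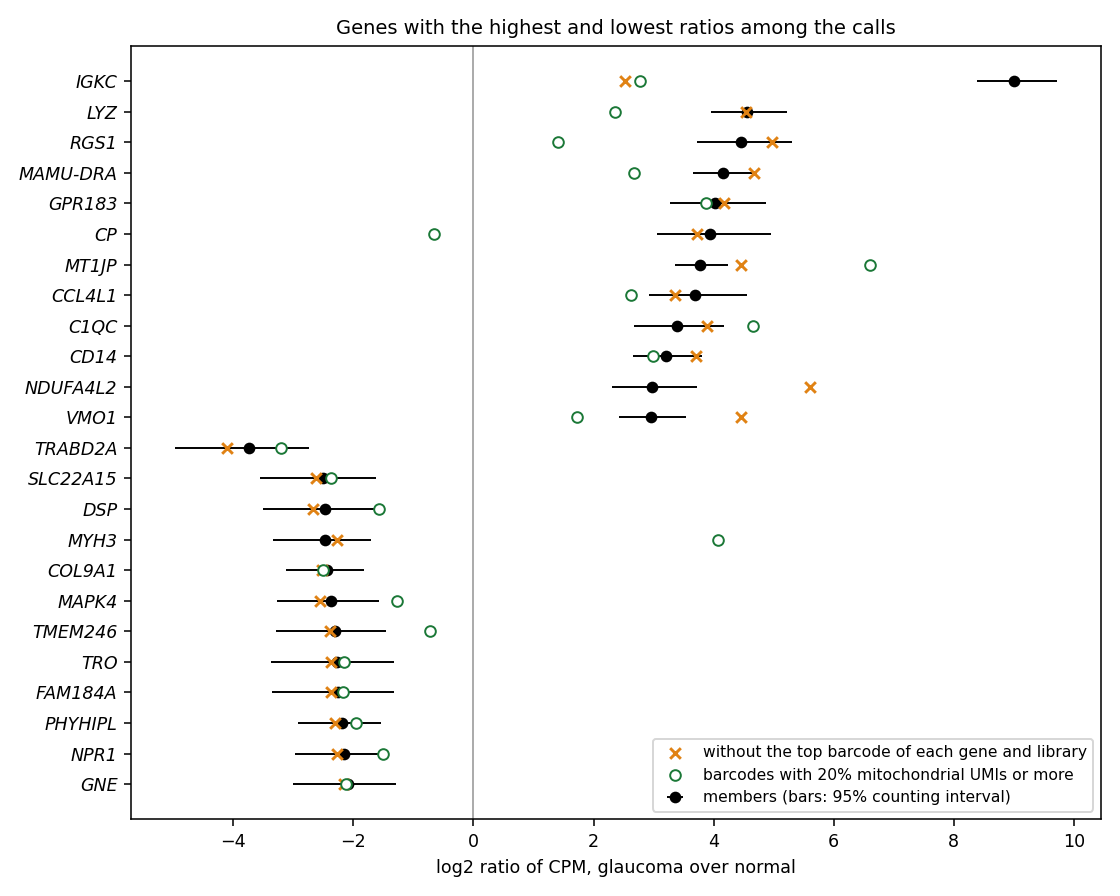
Log2 ratio of CPM, glaucoma over normal, for the 12 highest and 12 lowest called genes in ciliary-type cells (black points, bars are exact 95% counting intervals), without the top barcode of each gene and library (crosses) and in excluded barcodes with 20% or more mitochondrial UMIs (open circles). IGKC drops to 2.52 without its top barcode, MYH3 changes sign in the excluded barcodes, and no circle is drawn for NDUFA4L2 because the normal excluded barcodes had no UMI of it.

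The ciliary-type cells were not uniform, and levels differed with mitochondrial share. In this comparison CPM leaves out mitochondrial UMIs and the bands include barcodes past the limit. In glaucoma cells CHRM3 had 232 CPM in the band under 5%, 623 at 5 to 10%, 1381 at 10 to 15% and 1799 at 15 to 20%, and 3150.4 CPM in the band of 40% or more. In normal cells the same bands had 2165.8, 2659, 2554, 2759.7 and 3946 CPM. ATP2A1 had 31.7 CPM in the lowest band of glaucoma cells and 2182.3 CPM in that of normal cells, and at 20 to 25% the libraries were near each other with 3521 and 3609.5 CPM. CALD1 ran the other way, with 2482 CPM in the lowest band of glaucoma cells against 761.7 CPM in that of normal cells and 319.5 and 259.5 CPM at 15 to 20%. MGP, matrix Gla protein, chosen after its values were seen, had 39836 CPM in the lowest glaucoma band and 4928 CPM in the lowest normal band, against 1081 and 236 CPM at 15 to 20%.

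The glaucoma cells with least mitochondrial RNA were thus unlike the rest. The 23 glaucoma cells without CHRM3 held 33 CPM of ATP2A1, 36290.5 CPM of MGP and 2735 CPM of CALD1, against 2797, 3371 and 522 CPM in the other 266, with mitochondrial UMIs left out. MYOC, myocilin, a glaucoma gene that meshwork cells and ciliary muscle both express, had 22275 CPM in them and 3967 CPM in the other glaucoma cells. Leaving such cells out of both libraries reduced the calls to 116 higher and 214 lower, and 122 of the 154 and 197 of the 225 stayed at least 2-fold. PLN, COL9A1 and GPR183 did not follow this order: COL9A1 was lower in glaucoma cells in each of the 8 bands and GPR183 higher in each, and PLN was higher in all but the lowest. These 3 genes were named for their called ratios in ciliary-type cells, and the bands under 20% hold those same cells. The bands are therefore no separate check of the ratios. In RERGL-positive cells GPR183 had 10 glaucoma and 0 normal UMIs, COL9A1 stood at -1.28 [-2.73, -0.03] and PLN at 0.29 [-0.03, 0.61].

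**Figure D5:**
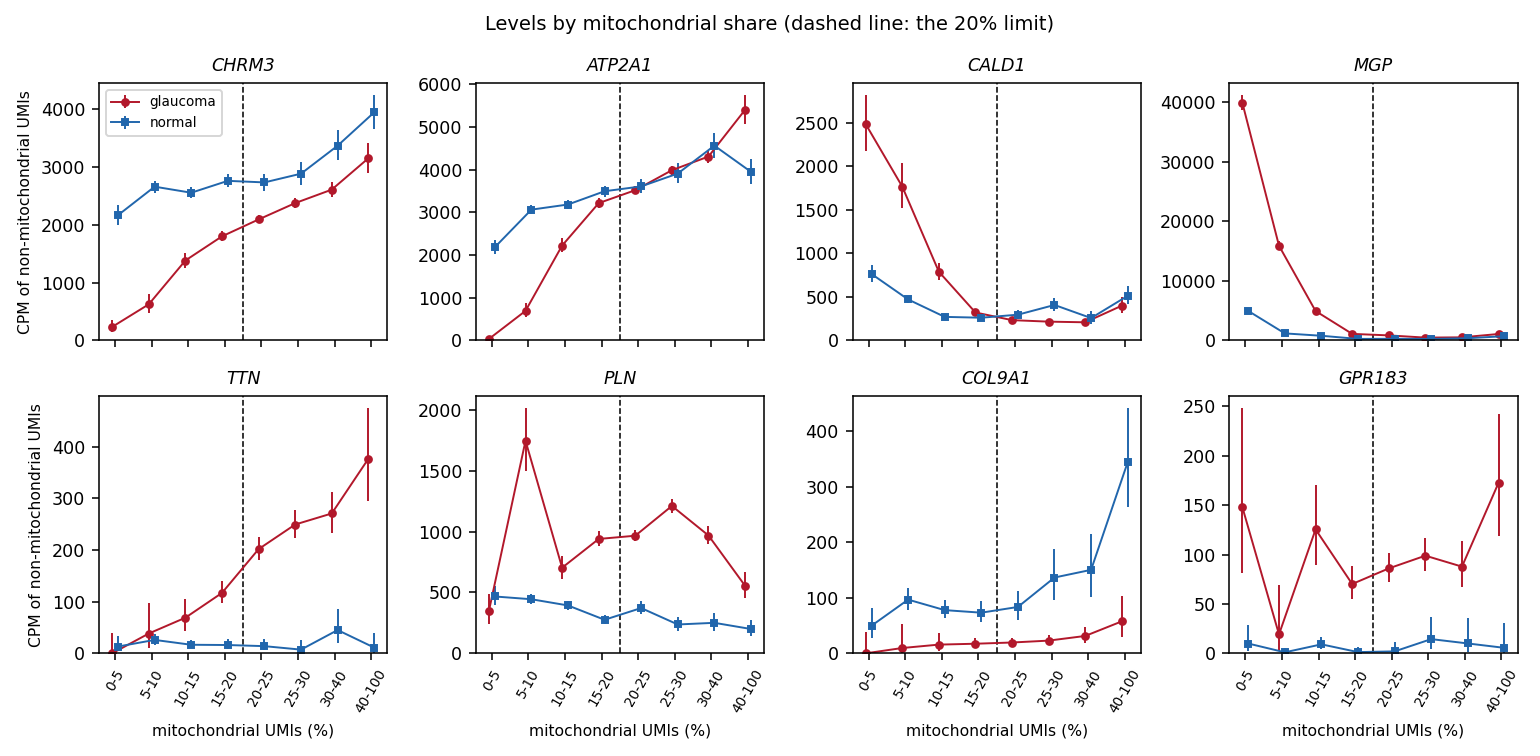
Levels of 8 genes in CPM of non-mitochondrial UMIs (vertical axes from 0) by band of mitochondrial share (horizontal axis), glaucoma in red circles and normal in blue squares, with exact 95% Poisson intervals; bands right of the dashed line lie past the 20% limit. CHRM3 and ATP2A1 are far lower in the lowest glaucoma bands, CALD1 and MGP far higher there, while COL9A1 and GPR183 differ between the libraries in every band.

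The limits of the rule were compared by the cells on either side of them, as a description. The 16 glaucoma cells with exactly 2 MYH11 UMIs had 191 CPM of CHRM3 and 39772 CPM of MGP, and the 53 barcodes just outside, with 1 MYH11 UMI, had 206 and 33019.9 CPM. In the normal library the 13 cells with 2 MYH11 UMIs had 1144 CPM of CHRM3 and 6929 CPM of MGP, and the 25 barcodes with 1 had 349.6 and 16594 CPM. The glaucoma cells on the 2 sides of this limit were thus closer to each other in both genes than the normal cells were. At the mitochondrial limit, glaucoma cells with 15 to 20% had 1479.6 CPM of CHRM3 and normal cells 2277 CPM, and barcodes with 20 to 25% had 1621 and 2121 CPM. Barcodes just past that limit were close to those just inside it. The 66 glaucoma cells with 3 markers had 1486 CPM of ATP2A1, against 54.4 CPM in the 58 barcodes with only 2 markers; in the normal library 80 such cells had 2659.6 CPM, against 218 CPM in 34 barcodes.

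Spread among cells was measured as the variance over the mean of thinned UMIs, for 551 genes with a mean of at least 0.2 UMIs in both libraries. Its median was 1.09 in glaucoma cells and 1.09 in normal cells, near the value of counting alone. MGP stood at 39.6 and 20.3, PTGDS at 10.8 and 8.51, APOD at 18.6 and 5.54, MYOC at 12.2 and 5.16 and TAGLN at 7.56 and 4.55, genes named for their values. IGFBP6 (5.31 and 11) and FOS (4.46 and 9.24) were more spread in normal cells. After thinning MGP was found in 43% of glaucoma and 20.1% of normal ciliary-type cells, against 34.3% and 16.2% of macrophages. Its detection thus stood near the free-RNA level. MYOC, in 75.9% and 71.5% of ciliary-type cells, stood above the 16.9% and 13.8% of macrophages. It was found in 31.7% and 33.3% of RERGL-positive cells but in 84.7% and 65.2% of pericytes, so it did not set ciliary-type cells apart from pericytes.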

How the data were processed

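The deposited files hold raw UMI counts per gene and barcode, unnormalized, as the authors' Cell Ranger run wrote them per the file headers. Cell Ranger 4.0 and Seurat 3.0 stand in the submitters' processing notes and the matrix headers name Cell Ranger 6.0.0; the genome build was not given in the sources used here. Of 24037 features, 15580 had a symbol in the files, 873 were named from a reference table and 7604 had no usable symbol.

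Barcodes with at least 500 genes and under 20% mitochondrial UMIs were kept, cells were chosen by the marker rule, and their UMIs were summed per library. Levels are CPM with exact Poisson intervals, and ratios have exact conditional binomial intervals at 95%; both cover counting error only. A gene with at least 100 UMIs was called at a ratio of at least 2-fold whose interval excluded equality. Each group had 1 library, so no test, p-value or replicate error could be had. Shares of cells have exact Clopper-Pearson intervals. Named genes were the 12 highest and 12 lowest calls, all called list members, and the highest and lowest of each list. Results of some list members are not reported here. Members and lists were chosen with earlier results of these data known. Doublets called with Scrublet (296 glaucoma and 45 normal barcodes of those kept) stayed in, and removal was an alternative. The calling steps were tested on simulated Poisson counts with known ratios. Those counts held no extra spread between cells or libraries, so they check the arithmetic only and not the calls in these data. Python 3.11.15, numpy 2.4.6, scipy 1.17.1, pandas 2.3.3, scanpy 1.11.5 and matplotlib 3.10.9 were used.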

Additional observations from a re-analysis of the deposited data

How the results depend on the processing

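The glaucoma share of ciliary-type cells was lower under the 10 alternatives that redefined kept barcodes or the rule, but among barcodes with 20% mitochondrial UMIs or more it was 84.3% in glaucoma and 81.2% in normal tissue. Its log2 ratio moved to -3.17 with a 10% mitochondrial limit and to -0.45 with none. Calls between libraries, 154 higher and 225 lower of 5198 genes tested, depended on the settings. Lower calls were 502 of 2402 genes with the 10% limit, which left 45 glaucoma and 243 normal ciliary-type cells. They were 432 of 6939 with no limit and 142 of 4261 at 10 to 20% mitochondrial UMIs. Relative to the median of all genes they were 129 of 5198. Higher calls were 98 of 4912 with at least 4 markers and 248 of 5348 in barcodes with 20% or more. Higher and lower calls were 31 and 60 of 1206 after thinning to 1000 UMIs before the rule, and 33 and 77 of 1347 after it. With a minimum of 30 UMIs they were 424 and 498 of 8016, and with 300 they were 53 and 80 of 2546. Against RERGL-positive cells, 30 higher and 147 lower calls became 57 and 76 with the 10% limit, 2 and 44 with at least 4 markers, 95 and 57 with thinning before the rule and 57 and 49 after it. Higher calls there were 7 with no limit, 85 with cells weighted equally and 165 with RERGL of at least 3 UMIs, and lower calls were 72 with a minimum of 300 UMIs. Lists with a median below 0, 13 of 17, were 7 with thinning before the rule and 8 after it. In the main setting 10 of the 17 lay below the median of all genes, -0.15.

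Called genes that changed sign were GUCY1A1 (0.79 with the 10% limit, 0.38 thinned after the rule), TTN (-0.17, 10% limit), CCL4L1 (-0.78, 10% limit), TNNI2 (0.18, thinned after the rule), CCL2 (-1.22 with the 10% limit, -0.84 thinned before the rule, -0.83 without other-cell markers, -0.56 at 20% or more), FBN1 (-0.06 with no limit, -0.78 at 20% or more), BGN (-0.02 and -0.07 in the same settings), CP (-0.65) and MYH3 (4.07), both at 20% or more. Thinning and a higher minimum leave fewer genes to test; the cause of the other changes was not tested. Of gene values, 3308 were within the tolerance set and 919 moved beyond it. The settings that leave out cells by CHRM3, other-cell markers or mitochondrial band, and those relative to the median, without top barcodes and with RERGL of at least 3, were chosen after seeing the data. No paired analysis was possible because each group had 1 library, and no replicate could be left out. Depth limited genes under 100 UMIs, which were not called.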

Other observations

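MYH3, embryonic myosin heavy chain, came from few barcodes in both libraries. In the normal library 13 of 601 ciliary-type cells held 174 UMIs, of which the 3 highest cells held 83, 28 and 20. In the glaucoma library 6 of 289 held 15 UMIs. Among the excluded barcodes with 20% or more mitochondrial UMIs the libraries were the other way round, with 33 of 915 glaucoma barcodes holding 212 UMIs, the highest 70, and 4 of 401 normal barcodes holding 4.

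Mitochondrial transcripts did not move as 1 unit in ciliary-type cells. MT-CO1 had 25042 CPM in glaucoma and 12214 CPM in normal cells (log2 ratio 1.04), MT-ND1 8177 and 5069 CPM (0.69) and MT-CO2 46892 and 31286 CPM (0.58). MT-ND2 had 4174 and 6389 CPM (-0.61), and CYTB, cytochrome b, 23430 and 26260 CPM (-0.16). MT-ND3 had 13 UMIs in glaucoma and 98 UMIs in normal cells (-1.85 [-2.81, -1.01]).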
